A study of Mus musculus with 6 samples.

Results

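Surface mucous cells, also called pit or foveolar cells, cover the gastric lumen and line the pits above the acid-secreting glands. They are described here by 10 genes: Muc5ac, Tff1, Gkn1, Gkn2, Psca, Anxa10, Capn8, Capn9, Vsig1 and Sult1c2. The genes were chosen as products of these cells, and every probe annotated to one of them, by the platform's symbol or the current symbol of the same Entrez gene, was taken. Of the 45281 probes on the array, 15 belonged to 9 of the 10 genes. No probe carried the name Tff1, so that trefoil peptide was not analysed here.

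The product of Lasp1 binds actin filaments through nebulin-type repeats, next to its LIM and SH3 domains, and the study asked what its deletion does to mRNA in the stomach lining. RNA of the fundic mucosa was measured on 6 Illumina bead arrays, 3 of Lasp1 knockout samples and 3 of wild type samples, from C57Bl/6Ncr mice aged 3 months. No treatment is named for either group. The sources used here do not name the targeted allele, the sex of the mice or whether an array held 1 animal or a pool. The p-values therefore cover the spread among these 6 samples, which may be technical.

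Pit cells secrete a gel of mucin, together with trefoil peptides and gastrokines, which shields the epithelium from acid and pepsin. They arise from progenitors in the isthmus of the gland, move up to the surface within days and are shed. Muc5ac is their main gel-forming mucin. Gkn1 and Gkn2 are secreted proteins with a BRICHOS domain, and their genes lie side by side, with Gkn3 as the next neighbour, on mouse chromosome 6. Of the other members, Psca is a surface protein held by a lipid anchor, Vsig1 is a membrane protein of the immunoglobulin superfamily, and Anxa10 is an annexin, a family that binds phospholipids in the presence of calcium. Capn8 and Capn9 are calcium-dependent proteases that form a complex in the mouse stomach, and Sult1c2 is a cytosolic sulfotransferase.

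The promoters of the 2 gastrokines are shown because Gkn1 gave the largest difference between genotypes among the members while its neighbour Gkn2 gave almost none. The sequences come from RefSeq (GRCm38.p6), which held promoters of 7 of the 10 members, from 250 bases before to 50 bases after the start site. Capitals mark matches on either strand to AGATAA and TGATAA, which hold the core read by GATA transcription factors, and to TATAAA. The motifs were chosen after the sequences were seen, and no matches overlapped.
Gkn1, chr6:87350866-87351165, minus strand: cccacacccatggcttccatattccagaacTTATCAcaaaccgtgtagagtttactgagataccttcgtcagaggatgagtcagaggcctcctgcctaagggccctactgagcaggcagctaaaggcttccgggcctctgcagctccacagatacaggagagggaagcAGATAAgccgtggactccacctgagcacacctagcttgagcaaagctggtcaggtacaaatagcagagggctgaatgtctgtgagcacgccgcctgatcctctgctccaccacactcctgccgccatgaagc
Gkn2, chr6:87373115-87373414, plus strand: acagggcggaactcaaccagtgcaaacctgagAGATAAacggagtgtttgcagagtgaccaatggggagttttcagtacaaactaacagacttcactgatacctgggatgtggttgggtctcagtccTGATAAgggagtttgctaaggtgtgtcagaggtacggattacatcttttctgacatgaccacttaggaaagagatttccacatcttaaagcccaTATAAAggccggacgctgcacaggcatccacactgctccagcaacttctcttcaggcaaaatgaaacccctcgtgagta
Each gastrokine promoter held 1 match to AGATAA and 1 to TGATAA. At least 1 of these motifs was found in 18.6% of all 32851 promoters of the same length, and in none of the other 5 member promoters. TATAAA was found in the promoters of Gkn2 and Anxa10, at 29 and 32 bases before the start site, against 13.6% of all promoters. A match describes the letters of the window and was not tied to any binding.

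The values are the authors' probe intensities, scaled so that the median probe of every array reads 1000. Lasp1 itself, on its brightest probe, read 88521, 111002 and 89823 on knockout replicates 1 to 3, against 270957, 275068 and 177315 on wild type replicates 1 to 3. The log2 difference was -1.30 (SE 0.21), with groups that did not overlap and a limma adjusted p of 0.994 over 22640 tested probes. Lasp1 probe ILMN_2879745 gave -1.59 with separate groups, and ILMN_2596851 gave -0.21 with overlapping groups. Whether any Lasp1 probe lies within the deleted stretch is not known here. Over all 22640 tested probes 2 passed an adjusted p of 0.05 (0.00883%), and the median log2 difference was 0.10. Of the tested probes, 76.9% lay higher in the knockout (50.9%, with a median of 0.0029, after quantile normalization).

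Arrays of the same genotype differed in their content of other tissues. Summed pancreatic acinar markers (7 of 8 listed genes tested) ranged from 10440 to 107868 on the knockout arrays and from 8353 to 3916025 on the wild type arrays, the highest being wild type replicate 3. Summed squamous markers (8 of 9 tested) ranged from 9258 to 583948 on the knockout arrays and from 8125 to 355395 on the wild type arrays, with knockout replicate 1 and wild type replicate 2 far above the others. Smooth muscle markers (5 of 6 tested) summed to 42888 to 232530 on the knockout arrays and 34245 to 102105 on the wild type arrays, with knockout replicate 1 the highest, and all 5 were higher on average in the knockout (median log2 difference 0.49, none past the threshold). Gastrin mRNA (Gast), a product of antral G cells, read 5003, 21207 and 861 on knockout replicates 1 to 3, and 43741, 35100 and 1354 on wild type replicates 1 to 3. The parts of these tissues in the differences below were not tested, and values without the arrays concerned are given.

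All 9 measured genes read above the median probe on every array. The lowest reading was that of Capn9 on wild type replicate 3, at 1.77 times the array median, and Gkn2 reached 554 times the median on knockout replicate 2. Of the 15 probes, 14 passed the filter on dim probes, which kept those above the median probe in mean log2 level over the 6 arrays. The exception was a dim Muc5ac probe, ILMN_2454851, which read 800 to 978 in the knockout and 780 to 957 in wild type, below the array median throughout. None of the 9 genes passed the threshold between genotypes (limma adjusted p = 0.994 for each, against 0.00883% of all probes called). At an unadjusted p under 0.05, 1 of the 9 differed, against 1.73% of all probes.

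Gkn1 was that gene. Its probe ILMN_2600499 read 292597, 345402 and 294443 on knockout replicates 1 to 3, against 242085, 243274 and 242879 on wild type replicates 1 to 3. Each knockout array exceeded each wild type array, a pattern found in 7.19% of all tested probes, and knockout replicate 2 was the highest. The means were 310814 ± 29969 in knockout and 242746 ± 605 in wild type mucosa (SD, n = 3 each). The log2 difference was 0.35 (SE 0.12, 95% interval 0.07 to 0.63), or 27.7% more signal in the knockout (limma unadjusted p = 0.0216, adjusted p = 0.994). The exact two-sided permutation p was 0.1, the smallest that 3 against 3 arrays can give.

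The wild type arrays were unusually alike for this probe, since only 10 of the 22640 tested probes (0.0442%) had a wild type log2 SD as small. That likeness was seen in the scaled values. Before the authors' scaling, recovered from the steps of the dim values, Gkn1 read 17965, 18842 and 15414 in the knockout and 15493, 14231 and 12326 in wild type. On that scale knockout replicate 3 lay below wild type replicate 1, so the groups overlapped, at a log2 difference of 0.31. After quantile normalization the groups were again separate, with a difference of 0.33 (limma unadjusted p = 0.0229).

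For Gkn2, the neighbouring gastrokine, the groups overlapped. It read 510291, 554467 and 488513 on knockout replicates 1 to 3 and 480100, 520168 and 521463 on wild type replicates 1 to 3. Knockout replicate 2 was highest and wild type replicate 1 lowest, with a log2 difference of 0.03 (SE 0.11, 95% interval -0.24 to 0.30), which turned to -0.02 without knockout replicate 2 and to -0.01 without wild type replicate 1 or with the scaling undone. A ratio within an array does not depend on the factor by which that array was scaled. The log2 ratio of Gkn1 to Gkn2, less its mean over the arrays, was 0.10, 0.22 and 0.17 in the knockout and -0.09, -0.20 and -0.20 in wild type, a difference of 0.32 with separate groups. Of the 36 pairs of members compared in this way, 2 had groups that did not overlap, Gkn1 with Gkn2 and Gkn1 with Psca (difference 0.39). Both held Gkn1, whose own groups were separate, and the share over pairs of other probes was not computed. Gkn2 and Psca read nearer the top of the measured range than Gkn1, and the part of this in the ratios was not tested. For each of the 2 pairs the exact permutation p was 0.1, or 0.873 after Benjamini-Hochberg adjustment over the 36 pairs.

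Gkn1 was also set against the median log2 level of the other 8 members on the same array, and the groups overlapped. Less its mean over the arrays, this gave 0.02, 0.15 and 0.03 in the knockout and -0.25, -0.29 and 0.35 in wild type. Because the median was taken over levels, on every array it lay midway between Sult1c2 and Anxa10. It therefore followed these genes and not the other 8 members as a group. Wild type replicate 3, where Sult1c2, Anxa10 and most other members were low, was the array that overlapped. Of all tested probes set against the median of the members, a related but not identical reference, 4.57% had separate groups. None of the 9 genes did when each was set against the median of the other 8. The exact permutation p was 0.2 or more for each, and 1 after adjustment over the 9 genes.

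Muc5ac, the gel-forming mucin, was measured by 2 probes above the filter. The brighter, ILMN_2884000, read 510676, 538490 and 465741 on knockout replicates 1 to 3, against 490620, 516585 and 399506 on wild type replicates 1 to 3. The groups overlapped, with the lowest value on wild type replicate 3, and the log2 difference was 0.11 (SE 0.14, 95% interval -0.22 to 0.45), or 0.0018 without that array. The second probe, ILMN_2423211, read 6651, 12666 and 10050 in the knockout and 10424, 9556 and 5371 in wild type, a difference of 0.22 (SE 0.33) with a 2.36-fold range over the arrays. The range of the brighter probe was 1.35-fold, so the 2 probes of this gene varied by different amounts between the same samples.

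Psca was the only member lower on average in the knockout. It read 416573, 468444 and 394125 on knockout replicates 1 to 3, against 454342, 442084 and 411643 on wild type replicates 1 to 3. The highest and the lowest reading were both from knockout arrays, and the log2 difference was -0.03 (SE 0.12, 95% interval -0.32 to 0.25). Without knockout replicate 3 it was 0.02.

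**Figure D1:**
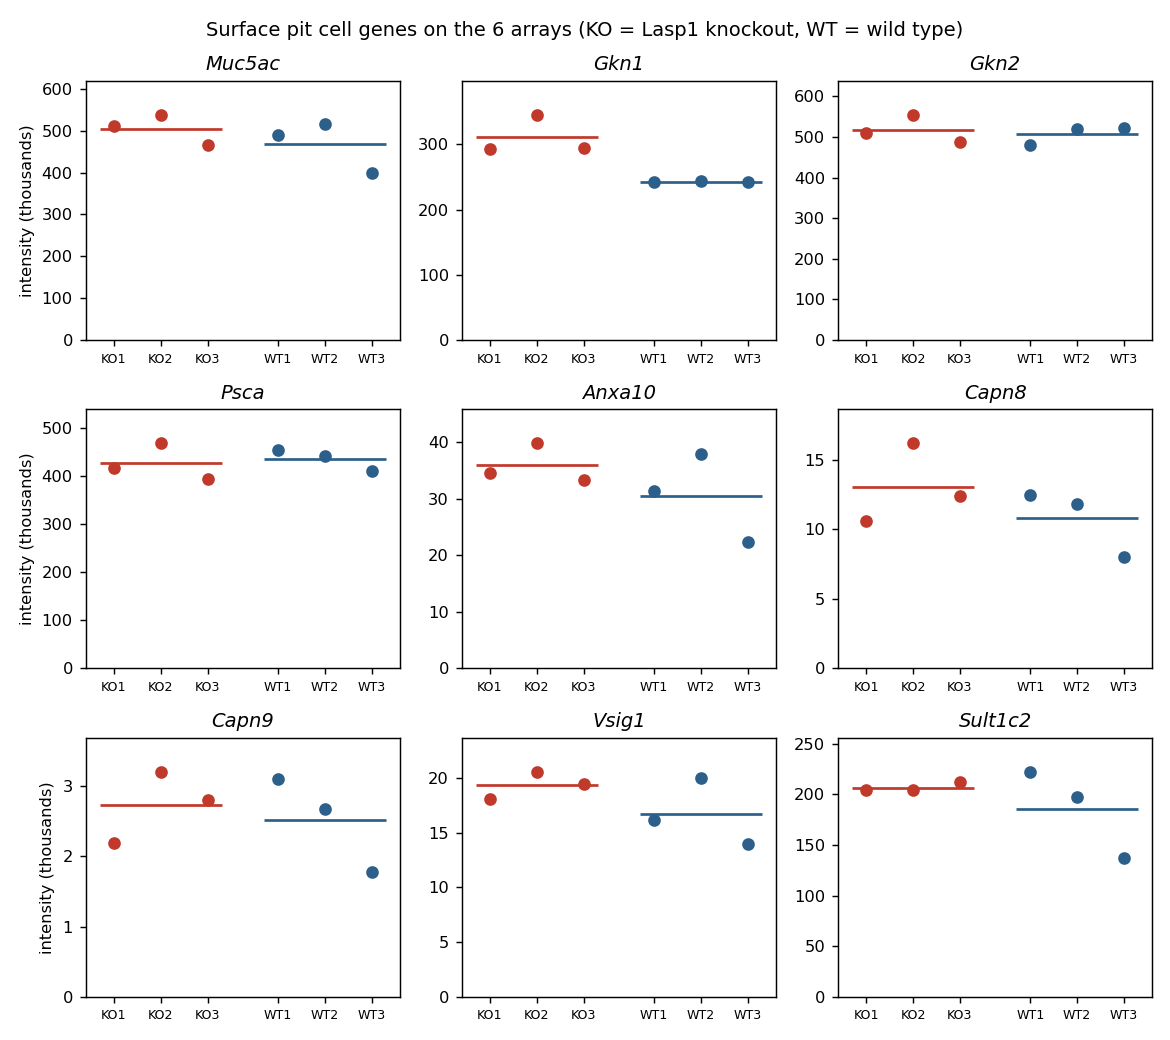
Intensity (vertical axis, in units of 1000 and from 0) of the brightest probe of each measured pit cell gene on the 3 Lasp1 knockout arrays (KO1 to KO3) and the 3 wild type arrays (WT1 to WT3), with lines at the group means. Only the knockout points of Gkn1, at 292597 to 345402, all lie above the wild type points, and 6 of the 9 genes have their lowest point on wild type replicate 3.

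The brightest members lay near the top of the measured range, which may limit what a difference in them can show. Before scaling, the highest probe of each array read 32675 to 34360, nearly the same on all 6 arrays. Gkn2 reached 77.0% to 93.4% of its array's highest probe, Muc5ac 59.0% to 93.4% and Psca 60.8% to 85.1%. Gkn1 lay lower, at 35.9% to 55.3%, and Sult1c2 at 20.3% to 41.6%, while the remaining 4 genes stayed at or below 6.6%. Whether signal near the top responds less to RNA was not tested, and saturation flags were not used here.

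By brightest probes, the 2 calpains had the widest ranges over the arrays among the members. Capn8, on its brightest probe ILMN_2805144, read 10625, 16210 and 12425 on knockout replicates 1 to 3, against 12482, 11859 and 8039 on wild type replicates 1 to 3. The groups overlapped, knockout replicate 2 was highest and wild type replicate 3 lowest, a 2.02-fold range. The log2 difference was 0.28 (SE 0.23, 95% interval -0.26 to 0.82), or 0.083 without wild type replicate 3, and the other 2 Capn8 probes gave 0.27 each.

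Capn9 read 2191, 3202 and 2801 on knockout replicates 1 to 3, against 3105, 2671 and 1775 on wild type replicates 1 to 3. Its log2 difference was 0.14 (SE 0.24, 95% interval -0.44 to 0.72), and it was -0.09 without wild type replicate 3. The calpains resembled each other more than any other member did either of them. The root mean square difference between their profiles over the 6 arrays was 0.11 log2. Gkn2 with Psca (0.08) and Anxa10 with Vsig1 (0.10) were nearer still. All such nearness was read from the same arrays and is a description.

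Anxa10 had 3 probes. The brightest, ILMN_1244342, read 34571, 39808 and 33273 on knockout replicates 1 to 3, against 31321, 37900 and 22398 on wild type replicates 1 to 3. Wild type replicates 1 and 3 lay below the knockout range, replicate 3 the lowest, while replicate 2 lay within it. The log2 difference was 0.26 (SE 0.21, 95% interval -0.23 to 0.75), or 0.05 without wild type replicate 3. The other probes gave 0.17 and 0.05, and after quantile normalization the 3 gave 0.07, -0.01 and -0.11, so the sign for this gene depended on the probe and the scaling.

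Vsig1 read 18093, 20562 and 19397 on knockout replicates 1 to 3, against 16155, 19952 and 13955 on wild type replicates 1 to 3. The groups overlapped through wild type replicate 2, at a log2 difference of 0.23 (SE 0.16, 95% interval -0.15 to 0.60), or 0.11 without wild type replicate 3.

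Sult1c2 was nearly level across the knockout, at 203991, 204126 and 211998, against 222348, 197714 and 137431 on wild type replicates 1 to 3. Its highest and lowest readings were both wild type. The log2 difference was 0.18 (SE 0.19, 95% interval -0.27 to 0.63), and it was -0.02 without wild type replicate 3.

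**Figure D2:**
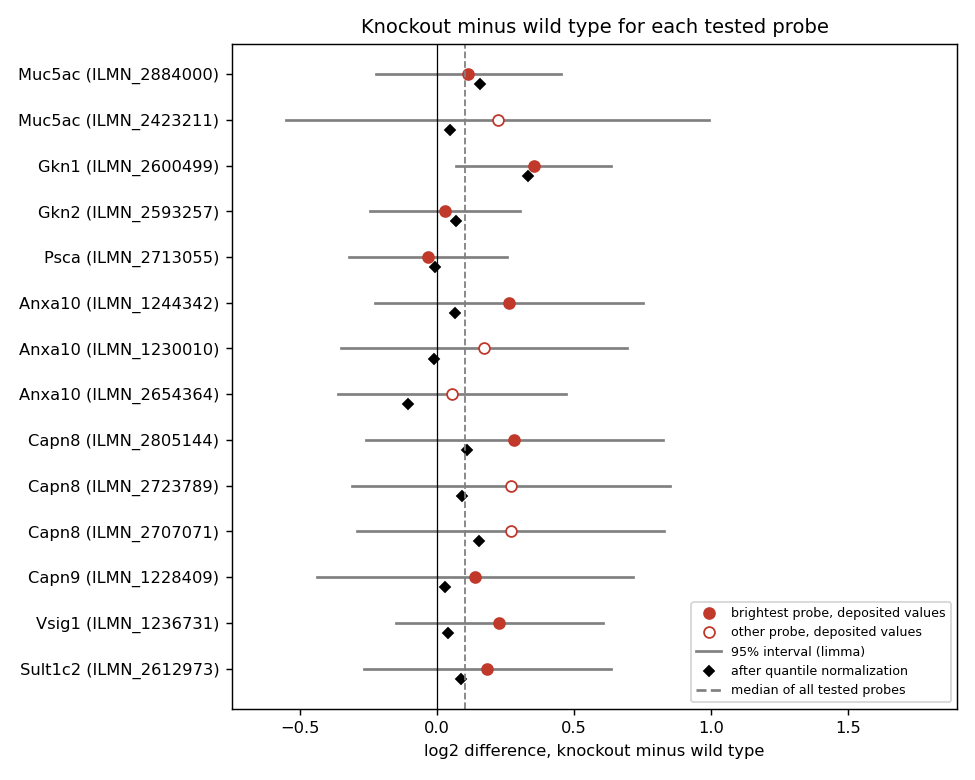
Log2 difference, knockout minus wild type (horizontal axis), of the 14 tested pit cell probes, with 95% limma intervals, black diamonds after quantile normalization and a dashed line at the median of all tested probes (0.10). The interval of Gkn1, 0.07 to 0.63, is the only one that leaves out 0, and the diamonds of 1 Psca and 2 Anxa10 probes fall below 0.

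By counts, 8 of the 9 genes were higher on average in the knockout, where 76.9% of all tested probes were, and their median log2 difference was 0.18 against 0.10 for all tested probes. After quantile normalization the same count was 8 of 9 and the median 0.07. In whole mucosa, a change in the number of pit cells and a change in mRNA per pit cell cannot be told apart.

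Several members shared their highest or lowest array. On wild type replicate 3, the array with high pancreatic transcripts, 6 of 9 genes had their lowest value, beside 64.9% of all tested probes. After quantile normalization this was 4 of 9 (26.2% of all probes), and with the scaling undone 7 of 9. As deposited, Capn9, Anxa10, Sult1c2 and Capn8 stood at 61.7%, 65.0%, 65.5% and 66.1% of the mean of the other wild type arrays (geometric), Gkn1 and Gkn2 at 100.1% and 104%. On knockout replicate 2, by contrast, 8 of 9 genes had their highest value, where 21.4% of all tested probes did. This held for 4 of 9 genes after quantile normalization (16.9% of all probes) and for 2 of 9 with the scaling undone, so it depended on the scaling.

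**Figure D3:**
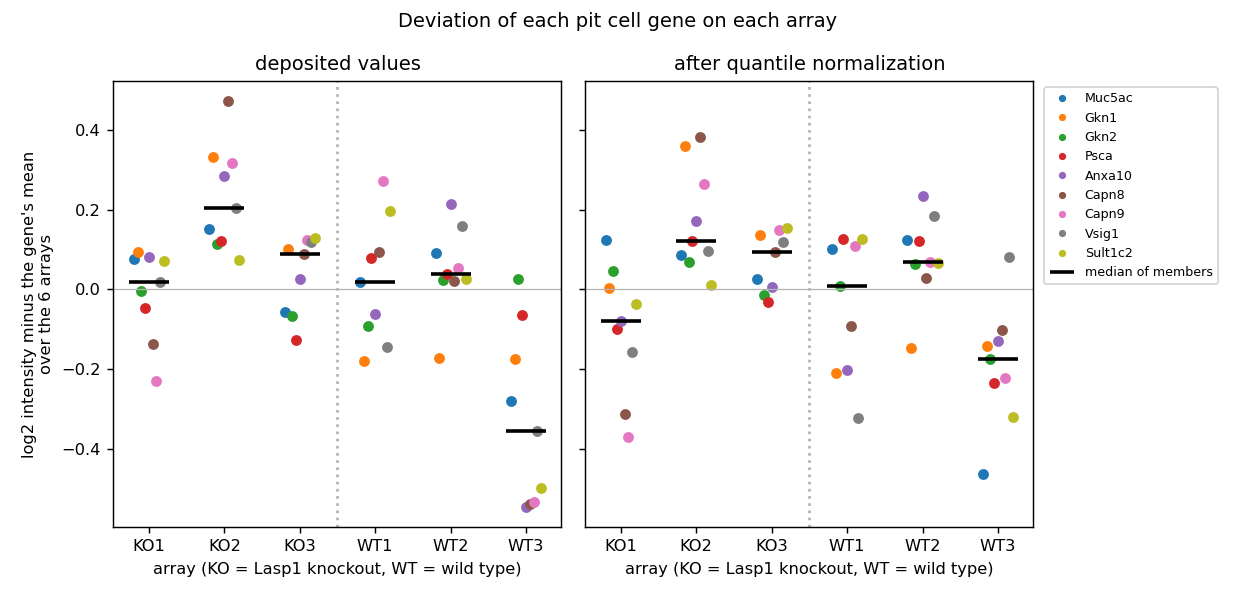
Log2 intensity of each gene less its own mean over the 6 arrays (vertical axis), on each knockout (KO) and wild type (WT) array, as deposited (left) and after quantile normalization (right), with a black bar at the median of the 9 genes. As deposited, the median bar is highest on knockout replicate 2 (0.20) and lowest on wild type replicate 3 (-0.36), and after quantile normalization these are 0.12 and -0.18.

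The titles number the arrays 1 to 6, and earlier work on these arrays found that those numbered 1 to 3 (knockout replicate 1, wild type replicates 1 and 2) differ from those numbered 4 to 6 (knockout replicates 2 and 3, wild type replicate 3). The labels do not say what the number means. Both arrays high in squamous transcripts are numbered within 1 to 3, and both high in pancreatic transcripts within 4 to 6. What the number stands for and this tissue content cannot be told apart here. Because the split was taken from these same arrays, the counts below describe it and are no independent test of it. Between these sets, with genotype in the model, 164 probes passed (0.724%) and none of the 9 genes did, with log2 differences, set 4 to 6 minus set 1 to 3, from -0.29 for Sult1c2 to 0.06 for Gkn1. Without knockout replicate 1 this contrast comes down to wild type replicate 3 alone against wild type replicates 1 and 2. In that case 4177 probes passed (18.4%), among them those of Capn9 and Sult1c2, which repeats their low readings on that array.

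The difference between genotypes was unlike in the 2 sets. Within the arrays numbered 4 to 6, where the single wild type array is replicate 3, the members' median log2 difference was 0.52 (0.29 for all tested probes) and 8 of 9 were higher. Within those numbered 1 to 3, where knockout replicate 1 stands alone, the median was 0.00 (0.04 for all tested probes) and 5 of 9 were higher. Capn8 differed by 0.82 and -0.20, Capn9 by 0.75 and -0.39, Anxa10 by 0.70 and 0.00, Sult1c2 by 0.60 and -0.04, Vsig1 by 0.52 and 0.01 and Muc5ac by 0.33 and 0.02, in that order of sets. Gkn1 differed by 0.39 and 0.27, Gkn2 by 0.00 and 0.03 and Psca by 0.06 and -0.11. These within-set values rest on 1 array of one genotype and were not tested.

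Leaving out the arrays that carried other tissues moved the members by different amounts. Without wild type replicate 3 the members' median was 0.05 (0.00 for all tested probes), with 6 of 9 higher. Without both arrays high in pancreatic transcripts (knockout replicate 3, wild type replicate 3) it was 0.09 (0.02 for all tested probes), again with 6 higher. Without both arrays high in squamous transcripts (knockout replicate 1, wild type replicate 2) it was 0.35 (0.09 for all tested probes), with 8 higher. That fit kept wild type replicate 3, where most members were low, beside wild type replicate 1 only. Gkn1 differed by 0.35, 0.39 and 0.40 in these fits, with none of the members past the threshold.

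Genes that build, fold or regulate the mucus of these cells were read from a list of 30, of which 26 were tested. The list held glycosyltransferases that start and extend O-linked sugars on mucins, secretory chaperones, transcription factors and other surface epithelial products. None passed the threshold. On average 25 were higher in the knockout and 1, Tmed3, was lower, with a median log2 difference of 0.15 (0.10 for all tested probes), and after quantile normalization 19 were higher with a median of 0.04. Of the 26, 20 were lowest on wild type replicate 3, where 64.9% of all probes were.

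Muc1, a membrane-bound mucin of the epithelial surface, stood at the top of that list. It read 95268, 129447 and 135058 on knockout replicates 1 to 3, against 84302, 85154 and 78731 on wild type replicates 1 to 3. Each knockout array exceeded each wild type array, at a log2 difference of 0.52 (limma unadjusted p = 0.0148, adjusted p = 0.994), and 0.36 after quantile normalization. Galnt12, a transferase that adds the initial sugar of O-glycans, was the other member with an unadjusted p under 0.05 (log2 0.37, limma unadjusted p = 0.0329). Separate groups were also seen for Galnt10 of the same enzyme family (0.31), for the gastric tight junction gene Cldn18 (0.42) and for C1galt1c1, the chaperone of the core 1 enzyme (0.14), which makes 5 of 26 beside 7.19% of all probes. After quantile normalization Cldn18 differed by 0.31, Galnt12 by 0.18 and Galnt10 by 0.14, while C1galt1c1 turned to -0.05. These genes were named after their values were seen.

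The most intense of the list were Mucl3, Ctse, Foxq1 and Cldn18. Ctse, the aspartic protease cathepsin E, read 524521, 557828 and 575552 on knockout replicates 1 to 3 and 513341, 525220 and 448154 on wild type replicates 1 to 3, a log2 difference of 0.16. Foxq1, a forkhead factor needed for Muc5ac production in the mouse stomach, read 270502, 244599 and 213610 in the knockout and 250063, 270775 and 164271 in wild type (0.12). Mucl3, a mucin-like membrane protein, differed by 0.13. Mucl3 and Ctse reached up to 96.5% and 96.2% of their array's highest probe. The groups overlapped for these 3 genes.

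**Figure D4:**
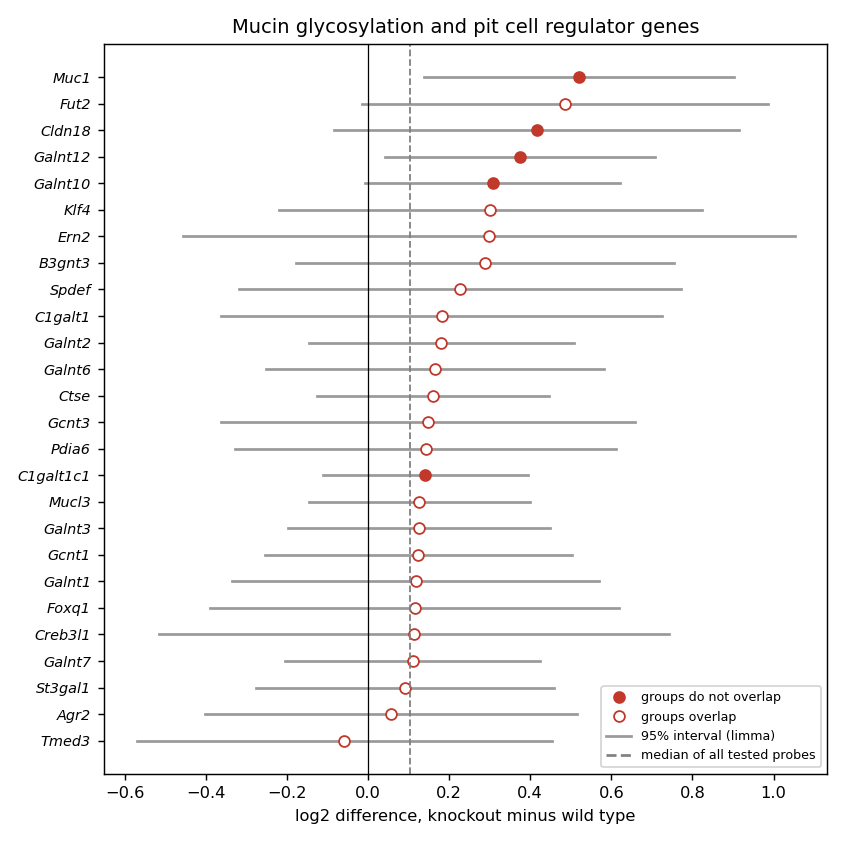
Log2 difference, knockout minus wild type (horizontal axis), of the 26 tested genes of the mucus list with 95% limma intervals. Filled points mark the 5 genes whose groups do not overlap, and 25 of 26 points lie above 0, most of them near the dashed line at the median of all tested probes (0.10).

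Lists for other epithelial cells of the mucosa gave no call either. Of the mucous neck genes, which mark the mucous cells deeper in the gland, 3 of 4 were higher. Their median log2 difference was 0.19 (0.10 for all tested probes), and after quantile normalization it was 0.01 with 2 of 4 higher. Tff2, the neck cell trefoil peptide, differed by -0.05. Of 8 parietal genes 6 were higher (median 0.05). Of 5 genes of the zymogenic chief cells 4 were higher (median 0.03). Of 6 enteroendocrine genes 2 were higher (median -0.08), Ghrl by 0.03 and Sst by 0.14. Gast differed by -1.50 (SE 1.60), with overlapping groups and a 50.8-fold range over the arrays, so no loss of gastrin mRNA can be read from it.

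Among the 6925 named genes whose range over the 6 arrays was at least that of the members' median profile (0.56 log2), the nearest to that profile were B230219D22Rik, Fzr1, Skiv2l, Egfr and Pon2, with root mean square differences of 0.02 to 0.04 log2. Muc5ac, the nearest member, stood at 0.08, and 130 of these other genes were nearer than it. High readings on knockout replicate 2 and low readings on wild type replicate 3 were thus shared by many genes outside the list.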

How the data were processed

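Total RNA of the gastric mucosa was labelled with biotin (Ambion MessageAmp kit) for Illumina arrays, per the labels' protocols. The deposited table holds 1 linear intensity per probe and array. From its values, the authors scaled each array to a median of 1000, without background subtraction or quantile normalization. Undoing the scale put dim values on steps of 0.05 (tolerance 0.02 of a step). The sources used here name no scanner or software.

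Of 45281 probes, 34885 had 1 gene symbol, 18 several and 10378 none, and 34807 matched the RefSeq gene table by Entrez identifier. Intensities were floored at 16, log2 transformed and kept as scaled. The 22640 probes above the median probe in mean log2 value (mean intensity above 991) were tested two-sided with limma 3.58.1 (lmFit, eBayes; R 4.3.3). Benjamini-Hochberg adjustment ran over all of them, with a threshold of 0.05. A gene is given by its brightest probe. Single genes and pairs of members had exact permutation tests. The fit was tested on simulated data. The number of arrays limits the precision.

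Members, gene lists and tests were chosen with earlier results of these arrays known. Named genes are the members, Lasp1, up to 4 most intense genes of each other list and the 5 nearest in profile, besides those said to be named after their values were seen. Alternatives were other normalizations, filters, variance models, blocks and array weights, leaving out arrays, and averaging a gene's probes. Undoing the scaling, and the comparisons between members within an array, were added after seeing the data. Figures were drawn with matplotlib 3.10.9.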

Additional observations from a re-analysis of the deposited data

How the results depend on the processing

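With the 18 alternatives, no member passed the threshold except Gkn1 with array weights (log2 0.40, limma adjusted p = 0.0343, range over its alternatives 0.0343 to 1), a fit in which 1 member and 1816 probes passed and which rests on wild type replicate 2 (weight 38.8, at most 1.6 on any other array). The weights were computed without reaching their convergence tolerance. Over all probes, 0 passed with only the probes above the 75th percentile of intensity, with the replicate block, without both squamous arrays, without both pancreatic arrays and with the scaling undone, and 0 on leaving out any single array but wild type replicate 3, without which 3 passed. Gkn1 was higher in the knockout in every alternative run (log2 0.27 to 0.40), as was Capn8 (0.08 to 0.50). The sign turned with array weights for Muc5ac (-0.020), Anxa10 (-0.040) and Vsig1 (-0.0055). It turned for Capn9 (-0.12) and Sult1c2 (-0.039) without both pancreatic arrays, and for the same genes without wild type replicate 3 (-0.094 and -0.021). Gkn2 turned without knockout replicate 2 (-0.022), without wild type replicate 1 and with the scaling undone (-0.010 each), and Psca without knockout replicate 3 (0.020). On leaving out single arrays Capn9 ranged from -0.094 to 0.31, Sult1c2 from -0.021 to 0.33, Gkn2 from -0.022 to 0.070 and Psca from -0.10 to 0.020. The members' median stayed within 0.01 and 0.35. Between the title-number sets, 631 probes passed after quantile normalization, 384 with no filter on dim probes and 1 to 4177 on leaving out single arrays, with 0 to 2 members. The cause of these shifts was not tested. Whether the replicate numbers pair the samples is not known here. Same-numbered deviations correlated at 0.04, -0.30 and 0.53, and those with unlike numbers at up to 0.55. With the replicate block Gkn1 differed by 0.35 (limma adjusted p = 0.863). Gkn2, Muc5ac, Psca, Mucl3 and Ctse read near the array maximum, where the response to RNA was not tested. The 3 arrays per genotype limit all genes.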
